A study of Mus musculus with 9 samples.

Results

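The genes described here encode 10 secreted factors linked to blood vessel growth, vascular tone or the response to low oxygen: Vegfa, Vegfb, Vegfc, Pgf, Adm, Adm2, Angptl4, Edn1, Stc1 and Stc2. They were found by symbol in the deposited gene table, where all 10 had a row among 24493, and all 10 were among the 12693 rows with at least 1 TPM (the share of a library's transcripts, corrected for their length and scaled to a fixed total) in at least 3 samples. RNA was sequenced from 6620c1, a tumor cell line of the mouse pancreas, at day 0, day 2 and day 14 of culture made to limit nutrients and oxygen, with 3 samples a day. The labels give the same medium to all 9 samples, day 0 included: DMEM in which amino acids were cut to 20% of the usual concentration, with glucose at 2.5 mM and 0.5% fetal calf serum, and no further treatment. They give neither the oxygen level nor the medium before day 0, and the table's column names carry a prefix, WT, that the labels do not explain. No culture without deprivation was followed to day 2 or day 14, so the effect of deprivation and that of time cannot be told apart. The labels do not say that the samples of a day came from separate cultures, so the p-values here rest on a spread that may be technical.

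In cells short of oxygen, the prolyl hydroxylases that mark hypoxia-inducible factor (HIF) for destruction lose activity, and HIF then binds short hypoxia response elements near its target genes. VEGFA, the main growth factor for blood vessel endothelium, and adrenomedullin, a vasodilator peptide encoded by Adm, are classic HIF targets, while VEGFB is known as a family member with little response to hypoxia. Shortage of amino acids acts through another route, in which the kinase GCN2 phosphorylates eIF2α and raises translation of the transcription factor ATF4. Tumors are known to grow vessels towards regions that release such factors, and the secreted proteins act mostly on neighbouring cells rather than on the cells that make them.

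Promoter sequences are shown for the members whose levels contrast most in the results: Adm, Adm2, Vegfa and Stc2, which rose, and Vegfb, whose change did not pass the test. The windows are from RefSeq (GRCm38.p6) and run from 250 bases before to 50 bases after a transcript start, 5′ to 3′ on the gene's strand. Of the 10 members, 8 had a window in that table, Vegfa and Pgf with more than 1, and Angptl4 and Stc1 are named only. Capitals mark the core of the hypoxia response element, searched on both strands as ACGTG or GCGTG and, for the other strand, CACGT or CACGC, where a CACGTG would count on both strands. The windows are chr7:110627407-110627706 (+) for Adm, chr15:89322470-89322769 (+) for Adm2, chr17:46032328-46032627 (-) for Vegfa, chr11:31370012-31370311 (-) for Stc2 and chr19:6987602-6987901 (-) for Vegfb.
Adm: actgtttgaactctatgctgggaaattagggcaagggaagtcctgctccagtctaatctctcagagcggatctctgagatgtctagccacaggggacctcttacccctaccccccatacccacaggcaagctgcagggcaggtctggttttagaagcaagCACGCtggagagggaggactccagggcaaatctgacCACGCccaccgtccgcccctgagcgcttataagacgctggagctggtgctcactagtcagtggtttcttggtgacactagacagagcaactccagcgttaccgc
Adm2: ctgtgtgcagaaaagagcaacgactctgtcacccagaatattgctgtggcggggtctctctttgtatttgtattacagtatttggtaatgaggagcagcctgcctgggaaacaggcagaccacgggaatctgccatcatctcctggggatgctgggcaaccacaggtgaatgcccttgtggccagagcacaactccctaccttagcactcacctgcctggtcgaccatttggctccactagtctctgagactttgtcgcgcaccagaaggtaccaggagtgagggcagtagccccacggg
Vegfa: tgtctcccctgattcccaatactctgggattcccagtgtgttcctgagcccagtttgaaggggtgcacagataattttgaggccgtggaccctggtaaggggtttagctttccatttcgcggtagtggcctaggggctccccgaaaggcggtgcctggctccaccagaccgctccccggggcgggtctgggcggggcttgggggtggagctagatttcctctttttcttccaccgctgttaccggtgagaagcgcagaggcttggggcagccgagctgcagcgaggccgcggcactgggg
Stc2: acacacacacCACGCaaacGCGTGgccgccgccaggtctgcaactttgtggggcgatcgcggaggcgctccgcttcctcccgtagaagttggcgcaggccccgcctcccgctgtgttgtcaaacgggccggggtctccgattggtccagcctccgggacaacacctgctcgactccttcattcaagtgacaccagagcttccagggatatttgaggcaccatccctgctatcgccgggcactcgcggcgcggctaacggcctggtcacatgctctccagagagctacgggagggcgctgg
Vegfb: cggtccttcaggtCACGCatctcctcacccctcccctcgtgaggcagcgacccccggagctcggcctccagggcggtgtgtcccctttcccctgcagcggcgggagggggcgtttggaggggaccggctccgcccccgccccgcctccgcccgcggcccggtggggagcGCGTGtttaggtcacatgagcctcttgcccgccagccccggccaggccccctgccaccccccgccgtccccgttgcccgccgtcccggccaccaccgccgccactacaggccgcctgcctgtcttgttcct
The Adm window held 2 cores, which began 90 and 54 bases before the start, and the windows of Stc2 and Vegfb held 2 each. The windows of Adm2 and of the upstream Vegfa start held none, while a window at a start inside the Vegfa gene held 2. At least 1 core was present in 6 of the members' 10 windows, and in 43.8% of all 32851 windows in the table. The composite element bound by ATF4, searched as TGATGNAA on both strands, was in none of the members' windows and in 3.97% of all windows. A match is a match of letters, and a window without one says nothing of the factor.

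Some measures of the libraries differed between days. TPM keep no read totals, so depth is unknown, and between 11569 and 12717 rows reached 1 TPM. The microRNA row Mir6236 took 22.5% of all TPM in replicate 3 of day 2, and the other 8 libraries lay between 8.27% and 14.6%. Keratins of duct epithelium were high throughout, and the 8 ductal and epithelial markers summed to between 11000 and 11640 TPM at day 0, 5524 and 7706 TPM on day 2, and 6959 and 8781 TPM at day 14. Of these markers, 1 rose and 5 fell at day 2, and 3 rose and 3 fell at day 14, both against day 0. The shares of all tested genes were 27.1% higher and 31.9% lower at day 2, and 36.2% and 18.8% at day 14. Epcam was low, at 2.23 ± 0.638, 0.686 ± 0.264 and 14.1 ± 4.91 TPM at day 0, day 2 and day 14 (SD, n = 3 each). Krt7 fell to 514.2 ± 58.2 TPM at day 14, against 1513 ± 69.2 TPM at day 0, and Sox9 rose to 26.3 ± 7.71 TPM, against 8.48 ± 1.60 TPM (limma adjusted p = 1.20e-05 and 0.000543). None of 6 endothelial and none of 6 fibroblast markers passed the filter, and 1 of 7 acinar and islet markers did, Cela1, at 3.83 ± 0.247 TPM at day 14, against 0.395 ± 0.322 TPM at day 0 (limma adjusted p = 0.000999). Cela1 was under 1 TPM in every library of day 0 and passed the filter only through later libraries.

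At day 2, 5 of the 10 factors rose against day 0 and none fell. They were Vegfa, Adm, Adm2, Stc1 and Stc2. In RNA from whole cultures, more cells that express a gene and more RNA per cell cannot be told apart. Of all 12693 genes tested, 27.1% were called higher and 31.9% lower in the same comparison (limma on log2(TPM + 1), adjusted p under 0.05), and the median log2 fold change was 1.22 over the 10 factors and -0.02 over all genes. At day 14 the same 5 genes and Edn1 were called higher and none lower, against 36.2% of all genes higher and 18.8% lower, with a median log2 fold change of 1.83 over the factors and 0.22 over all genes. Adm, Edn1 and Stc1 were under 1 TPM in every library of day 0 and passed the filter only through later libraries. A fall from day 0 could hardly have been called for them. The 10 factors were chosen with earlier results of these data known, so the counts describe them and test nothing. Against day 0, the calls of Vegfa, Adm, Adm2, Stc1 and Stc2 held on both days under every alternative that tested the gene. Between the later days the factors parted: at day 14 against day 2, Edn1 and Stc1 rose, Vegfa and Adm fell, and 6 did not pass the test, against 27.4% of all genes higher and 3.79% lower. The median log2 fold change of the factors was -0.22 there, against 0.25 over all genes.

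**Figure D1:**
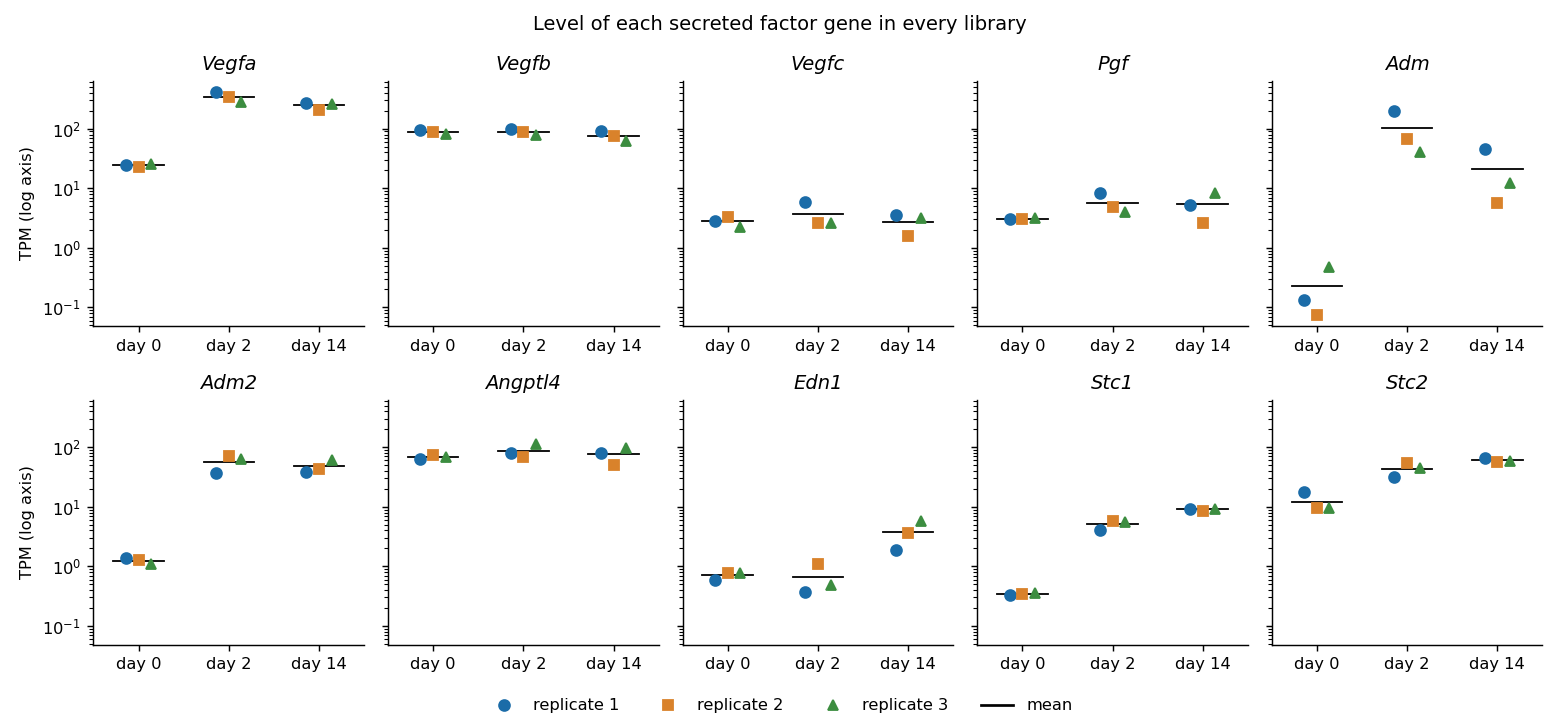
Level of each of the 10 secreted factors in each of the 9 libraries (TPM, log axis), by day of culture, with a point for each library and a short line for the day's mean. Vegfa, Adm, Adm2, Stc1 and Stc2 stand higher in every library of day 2 and day 14 than in any library of day 0, while Vegfb, Vegfc and Angptl4 overlap between the days.

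Vegfa, on chr17:46016993-46032369 (-; GRCm38, GENCODE M21, as for every gene position here), had the highest level of the 10 factors at both later days. Its levels were 24.8, 22.6 and 26.1 TPM in the libraries of day 0, 411.5, 340.1 and 286 TPM on day 2, and 272.4, 206.5 and 259.3 TPM at day 14. The days did not overlap, and even the lowest library of day 2 was above the highest of day 14. The mean at day 2 was 345.8 ± 62.9 TPM, against 24.5 ± 1.75 TPM at day 0 (SD, n = 3 each) and 14.1-fold higher, with a log2 change of 3.75 (SE 0.15, limma adjusted p = 3.09e-07). The mean at day 14 was 246.1 ± 34.9 TPM, 10.1-fold that of day 0, with a log2 change of 3.27 (SE 0.15, limma adjusted p = 3.71e-06). The level thus stayed high to day 14, below that of day 2. The mean at day 14 was 71.2% of that at day 2, a log2 fold change of -0.48 (95% interval -0.83 to -0.14, limma adjusted p = 0.0396). That last call was lost under 9 of 21 alternative settings, with adjusted p up to 0.126.

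Vegfb, on chr19:6982473-6987651 (-), encodes a ligand of the receptor VEGFR1, best known from heart and fat. It had the highest level of the 10 factors at day 0. Its levels were 93.7, 86.7 and 80.1 TPM at day 0, 100.2, 88.6 and 79.9 TPM on day 2, and 90.0, 76.4 and 63.0 TPM at day 14. The libraries of the 3 days overlapped. Its log2 fold change was 0.04 at day 2 against day 0 (95% interval -0.28 to 0.37, limma adjusted p = 0.822) and -0.19 at day 14 against day 0 (95% interval -0.52 to 0.13, limma adjusted p = 0.278). Neither interval reached a change as large as that of Vegfa in the same libraries. Small shifts of Vegfb depended on the scaling: with median-of-ratios scaling it was called lower at day 14 against day 0 (log2 fold change -0.49, limma adjusted p = 0.0175), and with quantile normalization it was called higher at day 2 against day 0 (0.40, limma adjusted p = 0.0478). At day 14 against day 2, where Vegfb did not pass (-0.23, limma adjusted p = 0.242), it was called lower under both scalings (-0.52 and -0.53, limma adjusted p = 0.0304 and 0.0309).

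Vegfc and Pgf had low levels on all 3 days. Vegfc, a growth factor for lymphatic vessels on chr8:54077606-54187096 (+), had 2.82, 3.24 and 2.28 TPM at day 0, 5.87, 2.64 and 2.57 TPM on day 2, and 3.51, 1.59 and 3.15 TPM at day 14. Its days overlapped, and its log2 fold change was 0.25 at day 2 and -0.04 at day 14 against day 0 (limma adjusted p = 0.488 and 0.909). Pgf, which encodes placental growth factor, another ligand of VEGFR1, lies on chr12:85166635-85177790 (-). It had 3.02, 3.01 and 3.20 TPM at day 0, 8.42, 4.86 and 3.93 TPM on day 2, and 5.16, 2.61 and 8.27 TPM at day 14. Every library of day 2 was above those of day 0, while day 14 lay on both sides of them. The log2 fold change of Pgf was 0.67 at day 2 (95% interval -0.09 to 1.43, limma adjusted p = 0.114) and 0.54 at day 14 (-0.22 to 1.29, limma adjusted p = 0.200), both against day 0. Neither passed, but Pgf was called higher at day 2 in a fit of only the groups compared (limma adjusted p = 0.0424) and at day 14 without day 14 replicate 2 (limma adjusted p = 0.0316).

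Within the family of Vegfa, Vegfb, Vegfc, Vegfd and Pgf, the make-up of the mRNA pool differed between day 0 and the later days. Vegfa made up 20.8 ± 2.03% of the family's summed TPM at day 0, 77.4 ± 0.928% on day 2 and 74.1 ± 3.02% on day 14 (SD, n = 3 each), and Vegfb 73.6 ± 2.04%, 20.2 ± 1.16% and 23.2 ± 3.93%. The summed level of the family was 117.9 ± 6.69 TPM at day 0, 446.4 ± 76.6 TPM at day 2 and 331.7 ± 42.1 TPM at day 14. The ratio of Vegfa to Vegfb ran from 0.261 to 0.325 at day 0, from 3.58 to 4.11 at day 2 and from 2.70 to 4.12 at day 14. In the libraries of day 2, Vegfb ran in the same order as Vegfa, highest in replicate 1 and lowest in replicate 3. Vegfd, the other lymphatic ligand, averaged 0.754 ± 0.382, 1.54 ± 0.664 and 1.10 ± 0.156 TPM on the 3 days.

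**Figure D2:**
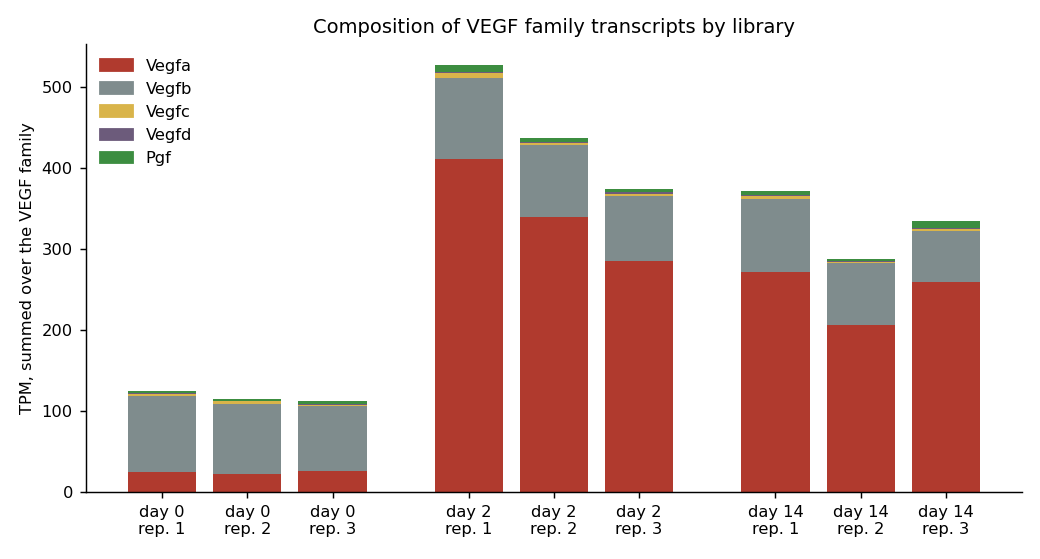
Stacked bars of the TPM of Vegfa, Vegfb, Vegfc, Vegfd and Pgf in each of the 9 libraries, ordered by day, so that a bar's height is the family's summed TPM. Vegfb is the largest piece in the 3 libraries of day 0 and Vegfa in every library of day 2 and day 14, where the piece of Vegfb has much the same height.

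Adm, on chr7:110627661-110629820 (+), encodes adrenomedullin, which relaxes vessels and acts through the receptor CALCRL joined to RAMP2 or RAMP3. It was under 1 TPM in every library of day 0, at 0.130, 0.0748 and 0.479 TPM, so it passed the filter only through the later libraries. At day 2 it had 201.8, 66.2 and 40.6 TPM, and at day 14 45.1, 5.69 and 12.4 TPM. All libraries of both later days were above those of day 0, and the libraries of day 2 and day 14 overlapped. Its log2 fold change was 6.09 at day 2 (SE 0.71, limma adjusted p = 9.29e-05) and 3.72 at day 14 (SE 0.71, limma adjusted p = 0.00216), both against day 0. These values are on the log2(TPM + 1) scale and understate the change of so low a gene. The value at day 2 was 8.16 with a pseudocount of 0.1 and 4.07 with one of 5, and the value at day 14 was 5.70 and 2.01. Against day 2, Adm at day 14 fell to a mean of 21.1 ± 21.1 TPM, against 102.9 ± 86.6 TPM at day 2 (SD, n = 3 each), with a log2 fold change of -2.37 (95% interval -3.97 to -0.76, limma adjusted p = 0.0331). That call was lost under 6 of 21 alternatives, among them without day 2 replicate 1 (-1.72, limma adjusted p = 0.0928), without day 14 replicate 2 (-1.74, limma adjusted p = 0.101) and without day 14 replicate 3 (-2.24, limma adjusted p = 0.085).

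Adm2, on chr15:89322720-89324731 (+), encodes intermedin, a relative of adrenomedullin that uses the same receptors. Its levels were 1.38, 1.26 and 1.11 TPM at day 0, 37.6, 70.8 and 64.0 TPM on day 2, and 38.1, 42.7 and 61.9 TPM at day 14. Both later days were far above day 0 and overlapped each other. The log2 fold change was 4.65 at day 2 (SE 0.25, limma adjusted p = 1.00e-06) and 4.40 at day 14 (SE 0.25, limma adjusted p = 9.11e-06), both against day 0, and at day 14 against day 2 it was -0.25 (95% interval -0.81 to 0.31, limma adjusted p = 0.476). The relatives did not run in parallel between libraries. The ratio of Adm to Adm2 was 5.37, 0.935 and 0.634 in replicates 1, 2 and 3 of day 2, and 1.19, 0.133 and 0.200 at day 14. In each of those days replicate 1 had the highest Adm and the lowest Adm2 of its 3 libraries.

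Angptl4, on chr17:33773750-33781830 (-), encodes angiopoietin-like 4, a secreted inhibitor of lipoprotein lipase that fasting and hypoxia are known to induce in other cells. It was already the second most abundant of the factors at day 0, with 62.7, 73.5 and 69.1 TPM. It had 80.9, 68.1 and 111.6 TPM on day 2, and 79.8, 51.2 and 98.2 TPM at day 14. The 3 days overlapped. The log2 fold change was 0.31 at day 2 (95% interval -0.23 to 0.86, limma adjusted p = 0.292) and 0.11 at day 14 (95% interval -0.44 to 0.66, limma adjusted p = 0.717), both against day 0. The upper bounds lie far under the changes of Vegfa in the same comparisons. Of 6 other angiopoietin-like genes with a row, 3 were tested, and all 3 rose at day 2 against day 0 and 2 of them at day 14. The shares of all tested genes called higher were 27.1% at day 2 and 36.2% at day 14. Angptl6 had 51.6 ± 16.3 TPM at day 2 and 23.4 ± 8.93 TPM at day 14, against 2.69 ± 0.794 TPM at day 0 (log2 fold changes 3.81 and 2.68, limma adjusted p = 9.66e-06 and 0.000148). Angptl8, an insulin-responsive partner in the control of lipoprotein lipase, had 10.8 ± 1.56 TPM at day 2 and 15.0 ± 4.48 TPM at day 14, against 2.44 ± 0.652 TPM at day 0 (log2 fold changes 1.78 and 2.20, limma adjusted p = 0.000188 and 0.000111). Lpl, which encodes lipoprotein lipase itself, fell to 1.68 ± 0.171 TPM at day 2 and 1.79 ± 0.333 TPM at day 14, against 7.30 ± 0.621 TPM at day 0 (log2 fold changes -1.63 and -1.58, limma adjusted p = 1.47e-05 and 4.74e-05).

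Edn1, on chr13:42301476-42307990 (+), encodes the precursor of endothelin-1, a strong vasoconstrictor made mainly by endothelium. Under 1 TPM in every library of day 0, it passed the filter only through later libraries, and it rose late. Its levels were 0.591, 0.772 and 0.779 TPM at day 0, 0.371, 1.09 and 0.494 TPM on day 2, and 1.91, 3.65 and 5.78 TPM at day 14. The first 2 days overlapped, and all libraries of day 14 were above both, though still at low levels. The log2 fold change was -0.08 at day 2 against day 0 (95% interval -0.73 to 0.58, limma adjusted p = 0.833), 1.40 at day 14 against day 0 (SE 0.29, limma adjusted p = 0.00329) and 1.47 at day 14 against day 2 (SE 0.29, limma adjusted p = 0.00556). With quantile normalization the rise against day 0 was 0.73 and not called (limma adjusted p = 0.0672). With pseudocounts of 0.1 and 5 it was 2.13 and 0.60. All 6 endothelial markers, Pecam1, Cdh5, Kdr, Tek, Tie1 and Emcn, were under 1 TPM in all 9 libraries, and their summed level was between 0.115 and 0.207 TPM at day 0, 0.0651 and 0.366 TPM on day 2, and 0.752 and 1.47 TPM at day 14. Their part in the result was not tested. Ece1, which encodes the enzyme that cuts big endothelin-1 to its active form, rose at day 14 as well: it had 29.6 ± 5.30 TPM at day 14, against 11.3 ± 0.410 TPM at day 0 (log2 fold change 1.30, limma adjusted p = 0.000288), and 15.6 ± 3.29 TPM at day 2 (log2 fold change 0.89 at day 14 against day 2, limma adjusted p = 0.00469).

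The stanniocalcins are glycoprotein hormones, known in mammals as local factors that respond to stress and that inhibit the protease pregnancy-associated plasma protein A. Stc1, on chr14:69029238-69041804 (+), was under 1 TPM in every library of day 0, passed the filter only through later libraries, and rose at day 2 and again by day 14. Its levels were 0.333, 0.338 and 0.355 TPM at day 0, 4.03, 5.72 and 5.59 TPM on day 2, and 9.26, 8.58 and 9.29 TPM at day 14. No day overlapped another. The log2 fold change was 2.18 at day 2 (SE 0.14, limma adjusted p = 3.09e-06) and 2.90 at day 14 (SE 0.14, limma adjusted p = 4.54e-06), both against day 0, and 0.73 at day 14 against day 2 (SE 0.14, limma adjusted p = 0.00530). The last was 0.37 and not called with quantile normalization (limma adjusted p = 0.0861), and 0.48 both with median-of-ratios scaling and with a pseudocount of 5. With pseudocounts of 0.1 and 5 the change against day 0 was 3.54 and 0.92 at day 2, and 4.37 and 1.39 at day 14.

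Stc2, on chr11:31357307-31370074 (-), was the more abundant stanniocalcin on every day. Its levels were 17.4, 9.67 and 9.59 TPM at day 0, 31.4, 54.1 and 44.4 TPM on day 2, and 66.0, 57.6 and 58.1 TPM at day 14. The 3 days did not overlap. The log2 fold change was 1.76 at day 2 (SE 0.25, limma adjusted p = 0.000274) and 2.27 at day 14 (SE 0.25, limma adjusted p = 0.000121), both against day 0. At day 14 against day 2 it was 0.51 (95% interval -0.05 to 1.06, limma adjusted p = 0.147), which did not pass. The ratio of Stc1 to Stc2 was 0.0304 ± 0.00980 at day 0, 0.120 ± 0.0124 on day 2 and 0.150 ± 0.00988 at day 14 (SD, n = 3 each). The annotation places antisense genes across Stc1, Edn1 and Adm, and since no source here states how strand was handled, reads from these genes and from their antisense partners cannot be told apart.

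**Figure D3:**
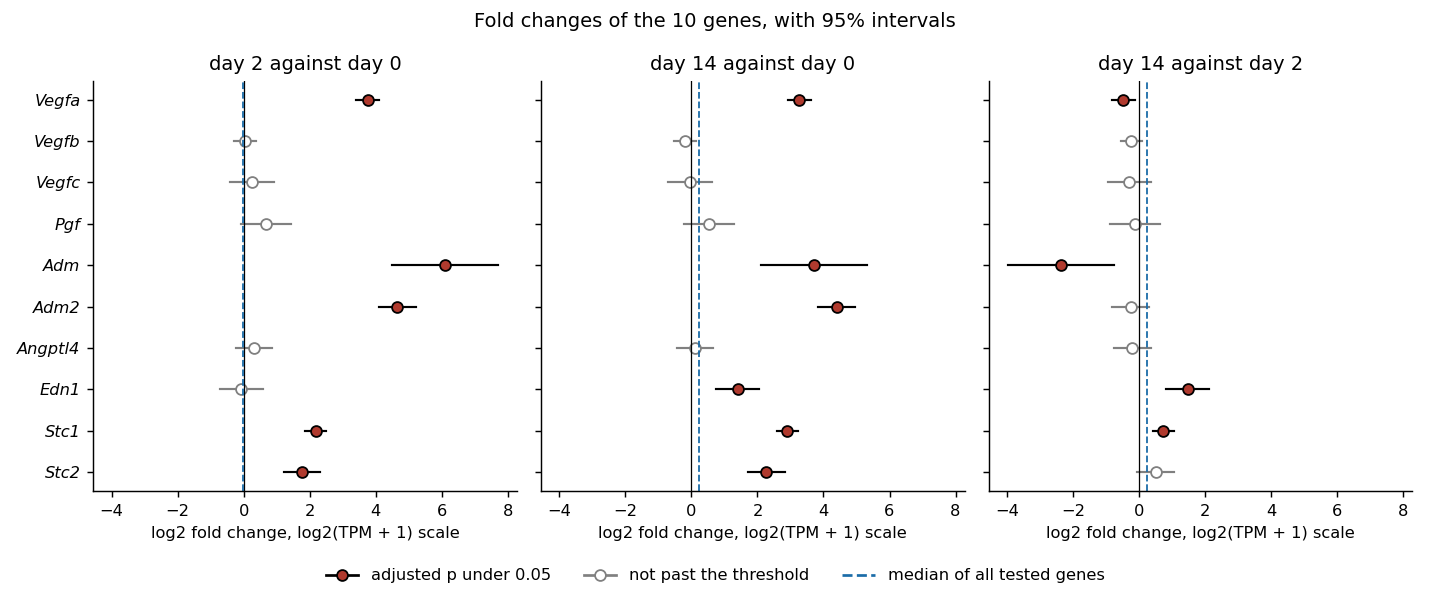
Log2 fold change of each of the 10 factors on the log2(TPM + 1) scale for day 2 over day 0, day 14 over day 0 and day 14 over day 2, with 95% intervals from limma, filled points for an adjusted p under 0.05 and a dashed line at the median of all tested genes. The intervals of Vegfa, Adm, Adm2, Stc1 and Stc2 lie above 0 in both comparisons with day 0, and those of Vegfb, Vegfc, Pgf and Angptl4 include 0 in all 3 comparisons.

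The order of levels among the factors, compared in TPM, changed after day 0. At day 0 the order was Vegfb, Angptl4, Vegfa, Stc2, Pgf, Vegfc, Adm2, Edn1, Stc1 and Adm, and the libraries of neighbouring genes overlapped for Pgf with Vegfc and for Stc1 with Adm. At day 2 Vegfa stood first, above all libraries of the next gene. Adm, Vegfb, Angptl4, Adm2 and Stc2 followed, each overlapping its neighbour, then Pgf, Stc1 and Vegfc, also overlapping, and Edn1 last. At day 14 Vegfa was again first and clear of the next gene, followed by Vegfb, Angptl4, Stc2, Adm2, Adm and Stc1, each overlapping its neighbour, and then by Pgf, Edn1 and Vegfc. The summed level of the 10 factors was 200.4 ± 6.99 TPM at day 0, 741.1 ± 126 TPM at day 2 and 549.1 ± 81.7 TPM on day 14 (SD, n = 3 each). Vegfa made up 12.3 ± 1.15% of that sum at day 0, 46.6 ± 1.84% at day 2 and 44.9 ± 0.345% at day 14.

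The factors differed widely in how far the libraries of a day spread. Adm spread most: its highest library was 4.97-fold the lowest at day 2 and 7.94-fold at day 14, and the SD of its log2(TPM + 1) was 1.17 and 1.41, larger than that of 98.6% and 98.8% of all tested genes. Stc1 spread least at day 14, with an SD of 0.0583, larger than that of only 7.63% of tested genes. Vegfa was nearer the middle, with an SD of 0.26 at day 2 and 0.21 at day 14, larger than 63.9% and 58.1% of tested genes, whose median SD was 0.119 at day 0, 0.215 at day 2 and 0.182 at day 14. Pgf had nearly equal libraries at day 0, with an SD of 0.0385, and an SD of 0.68 at day 14.

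The library that held a day's highest or lowest value differed between factors. At day 2, replicate 1 had the highest value for Vegfa, Vegfb, Vegfc, Pgf and Adm, and the lowest for Adm2, Edn1, Stc1 and Stc2. Over all tested genes, replicate 1 was the highest of day 2 for 37.9% and the lowest for 28.1%. Replicate 3, the library with the high share of Mir6236, was the lowest for 50.3% of tested genes and for 5 factors, Vegfa, Vegfb, Vegfc, Pgf and Adm, and the part of that share in these values was not tested. Of 8 genes of the ATF4 branch, 4 also had their lowest value of day 2 in replicate 1, Atf4, Ddit3, Trib3 and Chac1. Trib3, a pseudokinase induced by ATF4, had 44.5, 168.7 and 138.3 TPM in replicates 1, 2 and 3, and Chac1, which degrades glutathione, had 16.0, 63.7 and 67.2 TPM. Of 13 tested other vessel ligands, 4 were highest and 5 lowest in that library. Among the 4, Efna1, which encodes an ephrin, had 178.6, 101.4 and 94.9 TPM, and Angpt2, an angiopoietin that loosens vessels, had 9.78, 3.66 and 3.87 TPM. With 3 libraries a day, these orders are a description. At day 14 replicate 1 was again the highest for Vegfa, Vegfb, Vegfc and Adm, along with Stc2, and the lowest for Adm2 and Edn1, where 37.4% of tested genes were highest and 38.8% lowest. Trib3 and Chac1 were again lowest in replicate 1, at 60.1 and 47.6 TPM, but Ddit3 was highest there, at 337.7 TPM. Replicate 2 was the lowest for 7 of the 10 factors, against 33.7% of tested genes, and the highest for 0, against 24.05%.

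**Figure D4:**
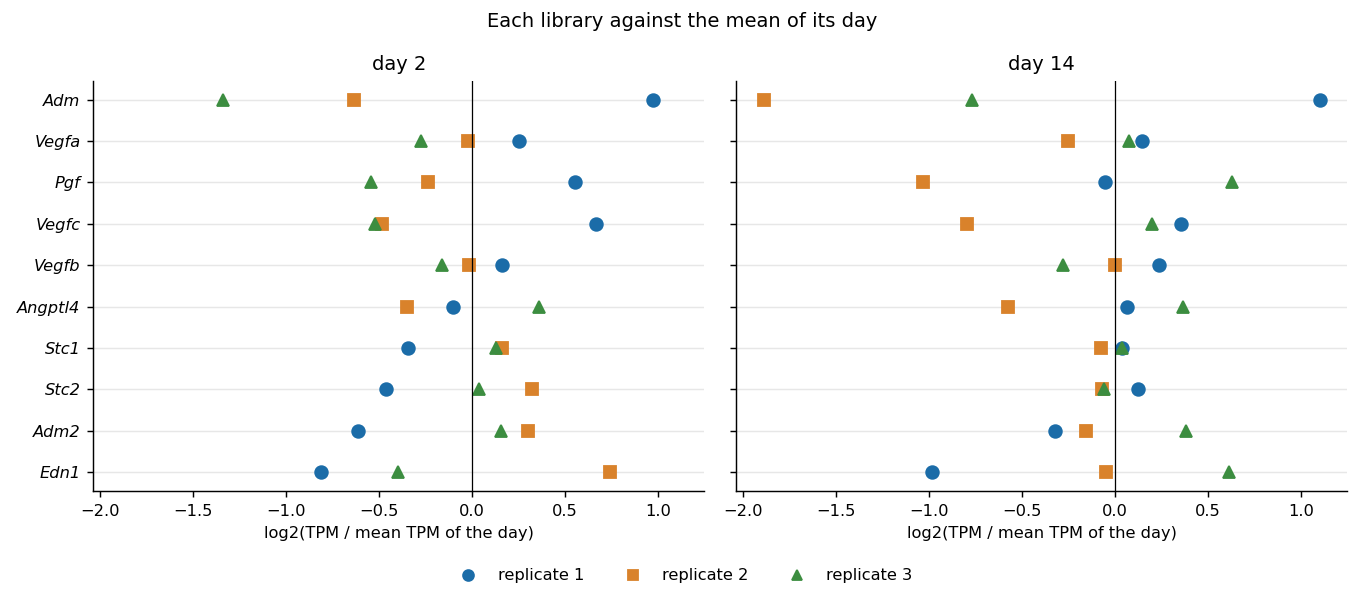
Level of the 10 factors in each library over the mean TPM of its day, as log2(TPM / mean TPM), at day 2 (left) and day 14 (right), with a symbol for each replicate number. At day 2 replicate 1 lies above the day's mean for Adm, Vegfa, Pgf, Vegfc and Vegfb and below it for Stc1, Stc2, Adm2 and Edn1, and the points of Adm spread most on both days.

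Receptors through which the factors could act on the cells themselves were mostly scarce. Of 13 listed receptors 8 were tested, of which 3 rose and 2 fell at day 2 against day 0, and 4 rose and 1 fell at day 14 against day 0. Of all tested genes, 27.1% rose and 31.9% fell at day 2, and 36.2% rose and 18.8% fell at day 14, shares near those of the receptors. Kdr, which encodes the main receptor of VEGFA, averaged 0.0268 TPM at day 0, 0.0135 TPM on day 2 and 0.117 TPM on day 14, and Flt1 averaged 0.0612, 0.494 and 0.571 TPM. Flt4, the receptor of VEGFC, averaged 4.71, 3.77 and 6.74 TPM and did not pass in any comparison. The neuropilins, co-receptors for VEGF and semaphorins, fell. Nrp1 had 3.53 ± 0.716 TPM at day 2, against 17.4 ± 4.74 TPM at day 0 (log2 fold change -1.998, limma adjusted p = 3.93e-05), and 11.5 ± 0.576 TPM at day 14, above day 2 (1.48, limma adjusted p = 0.000933) and not distinguished from day 0 (-0.52, limma adjusted p = 0.0541). Nrp2 had 6.27 ± 0.896 TPM at day 2 and 5.64 ± 0.457 TPM at day 14, against 15.5 ± 1.76 TPM at day 0 (log2 fold changes -1.19 and -1.31, limma adjusted p = 8.44e-05 and 9.75e-05). Itgb1, an integrin subunit, averaged 323.2, 258.2 and 292.6 TPM and did not pass.

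Of the adrenomedullin receptor chains, Ramp3 and Calcrl rose, both at low levels, and Ramp2 was too low to test. Ramp3 had 9.16 ± 1.13 TPM at day 2 and 4.32 ± 1.45 TPM at day 14, against 1.33 ± 0.639 TPM at day 0 (log2 fold changes 2.15 and 1.19, limma adjusted p = 7.49e-05 and 0.00298). Like Adm, it then fell between the later days (-0.96 at day 14 against day 2, limma adjusted p = 0.0163). Calcrl, the receptor chain itself, averaged 0.693 TPM at day 2 and 1.31 TPM at day 14, against 0.0876 TPM at day 0 (log2 fold changes 0.60 and 1.08, limma adjusted p = 0.0281 and 0.00191). It was under 1 TPM in every library of day 0 and passed the filter only through later libraries. Ramp2, the other partner chain, averaged 0.124, 0.0384 and 0.200 TPM on days 0, 2 and 14 and was not tested. Ramp1, from the same receptor list, averaged 0.358, 1.11 and 2.38 TPM on those days. It rose at day 14 against day 0 (log2 fold change 1.24, limma adjusted p = 0.00386) and did not pass at day 2 (0.65, limma adjusted p = 0.0618). Ramp1 too was under 1 TPM in every library of day 0 and passed the filter only through later libraries. The endothelin receptors Ednra and Ednrb averaged under 1 TPM on every day and were not tested.

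Among the enzymes and extracellular targets of the factors, 7 of 13 were tested, of which 1 rose and 5 fell at day 2 against day 0, and 2 rose and 2 fell at day 14 against day 0, beside 27.1% and 31.9% of all genes at day 2 and 36.2% and 18.8% at day 14. Pam, the enzyme that amidates peptides such as adrenomedullin, had 91.0 ± 4.31 TPM at day 2 and 83.6 ± 9.92 TPM at day 14, against 67.7 ± 2.46 TPM at day 0 (log2 fold changes 0.42 and 0.29, limma adjusted p = 0.00726 and 0.0399). The proprotein convertase Furin, which cuts precursors of VEGFC and endothelin, fell to 53.7 ± 1.11 TPM at day 2, against 86.1 ± 4.14 TPM at day 0 (-0.67, limma adjusted p = 0.00414), and had 79.8 ± 17.3 TPM at day 14, above day 2 (0.54, limma adjusted p = 0.0249). Pcsk7, another convertase, showed the same pattern, with 8.49, 5.36 and 8.31 TPM at day 0, day 2 and day 14 (-0.58 at day 2 against day 0, limma adjusted p = 0.00894). Ccbe1, a cofactor of VEGFC processing, fell to 2.31 ± 0.136 TPM at day 2 and 0.861 ± 0.819 TPM at day 14, against 7.86 ± 2.21 TPM at day 0 (log2 fold changes -1.39 and -2.30, limma adjusted p = 0.00299 and 0.000259).

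Regulators of the HIF and ATF4 routes also changed, and their part in the changes of the factors was not tested. Of 8 tested HIF subunits and regulators, 5 rose and none fell at day 2, and 5 rose and 1 fell at day 14, both against day 0, where 27.1% and 36.2% of all tested genes rose. The prolyl hydroxylase gene Egln3, itself a known HIF target, had 176.1 ± 9.71 TPM at day 2 and 124.2 ± 17.6 TPM at day 14, against 8.02 ± 1.53 TPM at day 0 (log2 fold changes 4.31 and 3.80, limma adjusted p = 1.94e-07 and 1.42e-06). Egln3 fell between the later days (-0.51 at day 14 against day 2, limma adjusted p = 0.0282), and so did Egln1 (118.8 ± 9.25 TPM at day 14 and 234.8 ± 8.08 TPM at day 2, -0.98, limma adjusted p = 0.000124). Of the 8 tested, 1 rose there and 5 did not pass, against 27.4% of all tested genes higher and 3.79% lower. Epas1, which encodes HIF-2α, averaged 2.63 TPM at day 14, against 0.969 TPM at day 0 (0.88, limma adjusted p = 0.00702), and Egln2 fell to 41.3 TPM at day 14, against 54.3 TPM at day 0 (-0.38, limma adjusted p = 0.0339). Of 8 genes of the ATF4 branch, 6 rose at day 2 and 7 at day 14, both against day 0, and none fell. Trib3 had 117.2 ± 64.8 TPM at day 2 and 91.1 ± 29.2 TPM at day 14, against 3.77 ± 2.31 TPM at day 0 (log2 fold changes 4.53 and 4.32, limma adjusted p = 7.30e-05 and 0.000172). Chac1 rose by 3.83 and Ddit3, a stress transcription factor, by 3.34 on the log2 scale at day 14 against day 0 (limma adjusted p = 0.000433 and 0.000124). At day 14 against day 2, 2 of the 8 ATF4 branch genes rose, where 27.4% of all tested genes rose. The other 6 did not pass, Trib3 among them (-0.21, limma adjusted p = 0.786).

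Of 13 tested other ligands with a role in vessel growth, 4 rose and 3 fell at day 2 against day 0, and 3 rose and none fell at day 14 against day 0. These counts are near or below the shares of all genes, 27.1% higher and 31.9% lower at day 2 and 36.2% and 18.8% at day 14. Efna1 had 125.0 ± 46.6 TPM at day 2 and 47.9 ± 15.1 TPM at day 14, against 10.9 ± 1.30 TPM at day 0 (log2 fold changes 3.36 and 2.01, limma adjusted p = 9.84e-06 and 0.000334). Ctgf, a matrix-bound growth factor, fell to 39.7 ± 12.1 TPM at day 2, against 172.7 ± 28.4 TPM at day 0 (-2.12, limma adjusted p = 5.85e-05), and at day 14 stood above day 0 at 310.0 ± 55.7 TPM (0.84, limma adjusted p = 0.0128). Pdgfa, a platelet-derived growth factor, rose by 0.998 on the log2 scale at day 14 against day 0 (limma adjusted p = 0.0117). Of 11 tested genes listed as inhibitors of vessel growth, 2 rose and 2 fell at day 2, and 2 rose and none fell at day 14, both against day 0, fewer in each case than the shares of all genes would give. Among those that rose at day 2 was Vash2 (log2 fold change 0.52, limma adjusted p = 0.0475), which is known to promote vessel growth rather than to inhibit it. Sema3f, a semaphorin that repels endothelium through NRP2, had 10.1 ± 0.488 TPM at day 2 and 24.5 ± 3.38 TPM at day 14, against 3.94 ± 0.464 TPM at day 0 (log2 fold changes 1.18 and 2.36, limma adjusted p = 7.01e-05 and 8.45e-06). Spry4, an inhibitor of growth factor signalling, rose by 0.85 at day 14 against day 0 (limma adjusted p = 0.00921).

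Of 12 other tested genes listed as secreted factors linked to hypoxia, 6 rose and 2 fell at day 2 against day 0, and 8 rose and 2 fell at day 14 against day 0, where 27.1% and 36.2% of all tested genes rose. Gdf15, a stress hormone, had 31.7 ± 12.4 TPM at day 14, against 3.51 ± 2.08 TPM at day 0 (log2 fold change 2.91, limma adjusted p = 0.000491). Fgf11 was in that list, though it is a fibroblast growth factor by sequence only and is not known as a secreted ligand. It had 11.3 ± 2.71 TPM at day 2 and 3.87 ± 0.572 TPM at day 14, against 0.689 ± 0.307 TPM at day 0 (log2 fold changes 2.86 and 1.54, limma adjusted p = 4.20e-06 and 0.000277). With 1.02, 0.641 and 0.409 TPM in the libraries of day 0, Fgf11 passed the filter only through later libraries. Nppb, which encodes B-type natriuretic peptide, rose late as Edn1 did, to 2.95 ± 2.02 TPM at day 14, against 0.398 ± 0.345 TPM at day 0 (1.42, limma adjusted p = 0.00757). Nppb was under 1 TPM in every library of day 0 and day 2 and so passed the filter only through day 14. Metrnl fell to 3.43 ± 0.623 TPM at day 14, against 6.88 ± 0.384 TPM at day 0 (-0.84, limma adjusted p = 0.00128). Beside the late changes, 3 of 6 leukocyte and macrophage markers were tested, and 2 of these rose at day 14 against day 0, where 36.2% of all tested genes rose. At day 14 against day 2 all 3 rose, where 27.4% of all tested genes did. Csf1r had 3.97 ± 1.495 TPM at day 14, against 0.215 ± 0.0919 TPM at day 0, and Cd68 had 6.32 ± 1.36 TPM, against 2.20 ± 0.150 TPM. Csf1r was under 1 TPM in every library of day 0 and day 2 and passed the filter only through day 14. The sum of that list ran from 52.7 to 70.5 TPM at day 0, 28.5 to 60.1 TPM at day 2 and 74.7 to 143.2 TPM at day 14, mostly from Cd14, while Ptprc, the pan-leukocyte marker, had 0.515, 0.0903 and 0.245 TPM at day 14 and the macrophage marker Adgre1 was listed at 0 in its 3 libraries. Their part in the changes of Edn1 and Stc1 was not tested.

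The genes most like each factor across the 9 libraries were found by Pearson's r of log2(TPM + 1) among 9962 tested genes that averaged at least 5 TPM on some day. Since libraries of a day share its mean, these values describe mostly the differences between days. Closest to Vegfa were Tle6 (r = 0.996), Dock6 (0.996) and Zfp316 (0.994). Closest to Adm were Nos1ap (0.993), Hk2 (0.992), which encodes the glycolytic enzyme hexokinase 2, and Plekha2 (0.992). Closest to Adm2 were Soat2 (0.997), Vldlr (0.997), a lipoprotein receptor, and Pck2 (0.996), the mitochondrial form of phosphoenolpyruvate carboxykinase. Stc1 lay closest to Gpbp1l1 (0.994), Wdr45 (0.993) and the stress gene Nupr1 (0.991), and Stc2 to Tsc22d3 (0.990), Amn1 (0.988) and Herpud1 (0.988), an endoplasmic reticulum stress gene. For the factors without a called change the best values were lower: Tmem94 for Vegfb (0.946), Zfand2a for Pgf (0.907) and Eml1 for Angptl4 (0.772).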

How the data were processed

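The authors deposited gene-level TPM for 9 libraries, which per the submitters' processing notes were quantified with Salmon. Version, build and annotation: not given in the sources used here. Depth cannot be had from TPM. Of 24493 rows, 12693 reached 1 TPM in 3 or more samples and were tested on log2(TPM + 1) with limma 3.58.1 in R 4.3.3 (eBayes with a trend, a mean per day, all 9 libraries in one fit). Two-sided p-values were adjusted (Benjamini-Hochberg) over all tested genes in each of 3 comparisons, with calls under 0.05. The members and lists were chosen with earlier results of these data known. Named were all members, receptors, enzymes and targets that reached a mean of 5 TPM on some day, and from other lists the 3 called genes that changed most between day 14 and day 0, with the largest opposite change. Angpt2, Vash2, Calcrl, Ramp1, Ramp2, Kdr, Flt1, Ednra, Ednrb, Vegfd, Atf4, Mir6236 and the other cell type markers were named after their values were seen. Gene lists from textbook knowledge were counted, not tested. The fit was tested on simulated data. The main fit did not pair the libraries by replicate number, and whether the numbers mark pairs is not known here. Alternatives were other pseudocounts, filters, scalings and variance models, a replicate block, and each library left out in turn. Python 3.11.15 and matplotlib 3.10.9 drew the figures.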

Additional observations from a re-analysis of the deposited data

Results flagged for a closer look

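For 4 of the 10 factors the change from day 0 differed between day 2 and day 14, by the limma test of day 14 against day 2. Of all tested genes, 27.4% were called higher and 3.79% lower in that comparison. Vegfa was lower at day 14 than at day 2 (log2 fold change -0.48, adjusted p = 0.0396), and so was Adm (-2.37, adjusted p = 0.0331). Edn1 was higher at day 14 than at day 2 (1.475, adjusted p = 0.00556), and so was Stc1 (0.73, adjusted p = 0.00530). The call of Vegfa was lost under 9 of 21 alternatives and that of Adm under 6 of 21. The call of Stc1 was lost under 1 of 20 and that of Edn1 under 0 of 20.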

How the results depend on the processing

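Of 30 comparisons of the 10 factors, 15 were called, and 11 of these remained called under every alternative that tested the gene. A further 5 were called under at least 1 alternative, and 0 reversed. Of all 12693 tested genes, 7484 were called at day 2 and 6990 at day 14, both against day 0. Between the later days, 3955 were called. At day 14 against day 2, 4 factors were called, but 2 with no filter, 2 with a mean of at least 5 TPM, which left Edn1, Stc1, Vegfc and Pgf untested, and 2 with only the groups compared, where 2616 genes were called against 3955. Leaving out each library in turn gave 2 to 4. The calls of Vegfa and Adm were the ones lost most often there, with values from -0.77 to -0.35 for Vegfa and from -3.13 to -1.72 for Adm. The cause was not tested. Same-numbered libraries correlated from -0.0709 to 0.318 once day means were taken out, and 4 of 9 were closest to their own number. With the replicate block, 7582, 7116 and 4031 genes and 5, 6 and 4 factors were called for day 2 over day 0, day 14 over day 0 and day 14 over day 2. The share of calls that were higher depended on the scaling. It was 45.9% at day 2 against day 0 and 56.9% without the 20 most abundant rows. At day 14 against day 0 it was 65.8%, 43.6% with median-of-ratios scaling and 45.8% with quantile normalization. At day 14 against day 2 it was 87.8%, and 51.6%, 43.6% and 76.0% under median-of-ratios, quantile and without the abundant rows. Those scalings moved the median log2 fold change of all genes at day 14 against day 0 to -0.05 and -0.02, against 0.22 as deposited. The unknown depth limits what can be said of factors under 1 TPM.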
